A study of Mus musculus with 4 samples.

Results

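The insulin-like growth factor (IGF) family was followed in lung alveolar type 2 (AT2) cells after bleomycin injury, in cells with and without the m6A demethylase gene Alkbh5. It comprises the ligands Igf1 and Igf2, the receptors Igf1r and Igf2r and the binding proteins Igfbp2 to Igfbp7, 10 genes of the 40092 rows in the count table. The family was chosen by the level of Igfbp6, which was lower in both knockout libraries, and its members were then taken by gene symbol, so that the difference in Igfbp6 is given below as a description without a test. The control mice (Ctrl) were Alkbh5 flox/+; Sftpc-CreERT2; Rosa26-mTmG, and the knockout mice (A5-CKO) were their littermates with the genotype Alkbh5 flox/flox; Sftpc-CreERT2; Rosa26-mTmG. Both groups received tamoxifen and then bleomycin, and GFP-positive AT2 cells were sorted on day 14 for RNA-seq, with 2 libraries in each group. Cre is driven by the AT2 gene Sftpc and turns on membrane GFP from the Rosa26 reporter. All 4 libraries therefore come from Cre-positive, tamoxifen-treated, injured mice, and the controls are themselves heterozygous for the floxed allele. The age and sex of the mice were not given in the sources used here.

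IGF-1 and IGF-2 are secreted growth factors. They act through the tyrosine kinase IGF1R, which recruits IRS adaptors and turns on the PI3K-AKT pathway. IGF2R, also the receptor for mannose 6-phosphate, carries IGF-2 to the lysosome for degradation. IGF-binding proteins hold the ligands outside the cell and can limit or prolong their action: IGFBP-6 prefers IGF-2, whereas IGFBP-7 binds IGFs with low affinity. In the lung, macrophages and fibroblasts are well-known sources of IGF-1, and AT2 cells are the surfactant-producing progenitors of the alveolar epithelium.

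The sequence upstream of 4 binding protein genes is printed because the values below single them out: Igfbp6 for its difference between the groups, and Igfbp3, Igfbp4 and Igfbp5 because each was lowest in the first and highest in the second A5-CKO library. Each run covers the 250 bases before a transcription start given by RefSeq in GRCm38.p6, from 5′ to 3′ on the strand of the gene. For Igfbp6 and Igfbp5 that start is the outer end of the gene, whereas the Igfbp3 and Igfbp4 windows lie within the span annotated for the gene. Capitals mark exact matches, on either strand, to the TATA box TATAAA, the CCAAT box CCAAT or the GC box GGGCGG.
Igfbp6, chr15:102143936-102144185, plus strand: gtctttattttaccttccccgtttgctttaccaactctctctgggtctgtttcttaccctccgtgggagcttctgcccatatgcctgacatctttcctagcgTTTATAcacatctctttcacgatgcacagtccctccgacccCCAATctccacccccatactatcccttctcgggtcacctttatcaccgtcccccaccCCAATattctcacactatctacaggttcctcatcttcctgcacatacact
Igfbp3, chr11:7213924-7214173, minus strand: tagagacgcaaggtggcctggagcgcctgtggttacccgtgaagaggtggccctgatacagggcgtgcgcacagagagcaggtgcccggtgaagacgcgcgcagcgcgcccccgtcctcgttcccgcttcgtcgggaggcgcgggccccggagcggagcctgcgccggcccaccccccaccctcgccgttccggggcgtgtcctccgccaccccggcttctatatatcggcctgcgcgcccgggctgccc
Igfbp4, chr11:99040994-99041243, plus strand: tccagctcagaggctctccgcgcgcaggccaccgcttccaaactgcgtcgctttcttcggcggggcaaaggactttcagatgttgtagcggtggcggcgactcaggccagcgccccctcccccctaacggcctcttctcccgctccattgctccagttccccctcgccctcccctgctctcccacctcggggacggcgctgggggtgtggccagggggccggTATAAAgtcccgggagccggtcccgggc
Igfbp5, chr1:72874866-72875115, minus strand: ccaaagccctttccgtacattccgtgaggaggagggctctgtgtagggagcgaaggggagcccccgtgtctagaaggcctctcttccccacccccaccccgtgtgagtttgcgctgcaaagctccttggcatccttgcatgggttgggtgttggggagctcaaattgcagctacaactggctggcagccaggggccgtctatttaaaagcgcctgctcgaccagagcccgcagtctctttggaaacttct
The Igfbp6 window held 1 TATA box, read on the reverse strand and so written TTTATA, and 2 CCAAT boxes. Its GC content was 49.6% with 7 CpG dinucleotides, where the 32851 RefSeq windows had a median of 52.4% and 6. The windows of the other binding protein genes printed were richer in GC, at 73.2% for Igfbp3, 69.2% for Igfbp4 and 58.8% for Igfbp5. Of these 3, Igfbp4 had 1 TATA box near the 3′ end of its window and the others had no match to any of the 3 motifs. Matches of this kind are common: a TATA box was found in 12.4% of all windows, a CCAAT box in 33.8% and a GC box in 32.7%.

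Because Alkbh5 removes m6A from RNA, the letters GGACT, a common form of the m6A consensus, were also searched in the longest transcript of each gene (GENCODE M21). Igfbp6 had 3 matches in 1112 bases, all in exon 1 of its 4 exons. The transcript starts at base 102144362 of chromosome 15, downstream of the RefSeq start at 102144186. The first 2 matches lie in the 5′ UTR at bases 52 to 56 and 147 to 151, and the third in the coding sequence at bases 430 to 434, counted from the transcript start. They are shown in capitals within 25 bases each.
Igfbp6 site 1, chr15:102144403-102144427, plus strand: cccagttaagGGACTgcctttttcc
Igfbp6 site 2, chr15:102144498-102144522, plus strand: cagctgcactGGACTctctggaagg
Igfbp6 site 3, chr15:102144781-102144805, plus strand: gtgcgccccaGGACTgcagtgccaa
The density in Igfbp6, 2.70 matches per kb, was above that of 96.5% of the 13692 coding genes tested for expression, whose median was 1.05 per kb. It rests on 3 matches in the shortest transcript of the family. Igf1r (14 matches), Igf2r (12), Igfbp5 (7) and Igfbp4 (6) had more matches in longer transcripts. The other members ranged from 0 matches in Igfbp2 to 1.57 per kb in Igfbp4, and 92.8% of the coding genes had at least 1 match. No m6A measurement entered these values, and a match does not show that the base is methylated.

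The libraries held 18144865 to 20811757 counts. Alkbh5 was at 81.7 and 152 normalized counts (CPM, counts scaled to a common library size with TMM factors) in Ctrl and at 19.3 and 36.6 in A5-CKO, 4.18-fold lower without overlap (log2 fold change -2.06, SE 0.46, edgeR adjusted p = 0.528, DESeq2 adjusted p = 0.0224). This count covers the whole gene, of which a supplementary figure legend of the study places the first exon between the loxP sites. The AT2 identity was clear from Sftpc, which lay between 7856 and 16370 CPM, although for 6 of 9 AT2 markers the higher A5-CKO value lay below the lower Ctrl value, as it did for 23.5% of all 16661 genes tested. The first Ctrl and the second A5-CKO library stood apart by markers of other cells. The sum of 10 macrophage markers was 2918 and 2279 CPM in these 2 libraries against 483 in the second Ctrl and 274 in the first A5-CKO library. The sum of 8 fibroblast markers was 403 and 1039 CPM against 151 and 96.9, so that this split crosses the genotypes, and no marker of either list was at 0 in any library. The log2 fold change of each member is therefore also given without each of these 2 libraries.

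The ligands were scarce and variable in the sorted cells. Igf1, the ligand of IGF1R, was at 20.2 and 1.28 CPM in Ctrl and at 3.80 and 20.2 CPM in A5-CKO, from 22 to 472 counts per library. The groups overlapped fully, with a high and a low library in each. The high ones were the first Ctrl and the second A5-CKO library, where the summed macrophage and fibroblast markers were high as well. The plasma, transitional epithelial, mesothelial, basal, and smooth muscle cell and pericyte sums were also above their means in these 2 libraries. Of these sums, the plasma and transitional epithelial ones were lowest in the second Ctrl library, as Igf1 was. The macrophage and fibroblast sums were lowest in the first A5-CKO library. Of all 16661 genes tested, 1.31% differed as much as Igf1 between the Ctrl libraries and 3.76% as much between the A5-CKO libraries. The log2 fold change of 0.16 had a standard error of 1.19 (adjusted p = 0.971). It moved to 3.30 without the first Ctrl library and to -1.53 without the second A5-CKO library, with adjusted p no lower than 0.508 under any alternative. The part of macrophages, fibroblasts or the other cell types named here in the Igf1 values was not tested.

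The genes whose profile over the 4 libraries was closest to Igf1, by Euclidean distance of centred log2 CPM, included Clec5a (0.29), Gm5086 (0.36), Ccn2 (0.39) and Gm15270 (0.42). Gm5086 had at most 12 counts in any library and none in the second Ctrl library. Clec5a encodes a myeloid lectin receptor. Ccn2, which encodes connective tissue growth factor, was at 213 and 19.8 CPM in Ctrl and at 48.8 and 233 CPM in A5-CKO. The single macrophage markers did not all share the order of Igf1: 3 of 10 were lowest in the second Ctrl library, as Igf1 was, and 7 in the first A5-CKO library. Their highest library was the first Ctrl one for 4 and the second A5-CKO one for 6.

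Igf2, the fetal growth factor of the family, was at 4.38 and 11.9 CPM in Ctrl and at 2.40 and 4.83 CPM in A5-CKO. The second Ctrl library was the high one, and the first Ctrl library lay between those of A5-CKO. The log2 fold change was -1.17 (SE 0.68, adjusted p = 0.576), and it was -1.65 without the first Ctrl, -0.31 without the second Ctrl and -1.79 without the second A5-CKO library. H19, its imprinted neighbour, also overlapped between the groups, at 1.60 and 1.11 CPM in Ctrl and 0.23 and 1.58 CPM in A5-CKO.

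Of the receptors, Igf1r was the only family member whose A5-CKO libraries both lay above both Ctrl libraries. It was at 13.4 and 11.5 CPM in Ctrl and at 16.8 and 25.8 CPM in A5-CKO. The log2 fold change of 0.77 (SE 0.40) did not pass the test (adjusted p = 0.549) and ranged from 0.40 to 1.04 as single libraries were left out, at 0.95 without the first Ctrl and 0.40 without the second A5-CKO library. It fell to 0.23 when the fit was corrected for transcript length. A separation in this direction was found in 20.3% of all tested genes.

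Igf2r was the more abundant receptor, at 142 and 206 CPM in Ctrl and at 148 and 212 CPM in A5-CKO. The groups overlapped almost completely (log2 fold change 0.05, SE 0.35, adjusted p = 0.967), and the first library was the lower one in each. The log2 fold change was -0.13 without the first Ctrl and -0.27 without the second A5-CKO library. Per read count, Igf2r exceeded Igf1r by 10.6 and 17.8 times in Ctrl and by 8.78 and 8.22 times in A5-CKO.

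**Figure D1:**
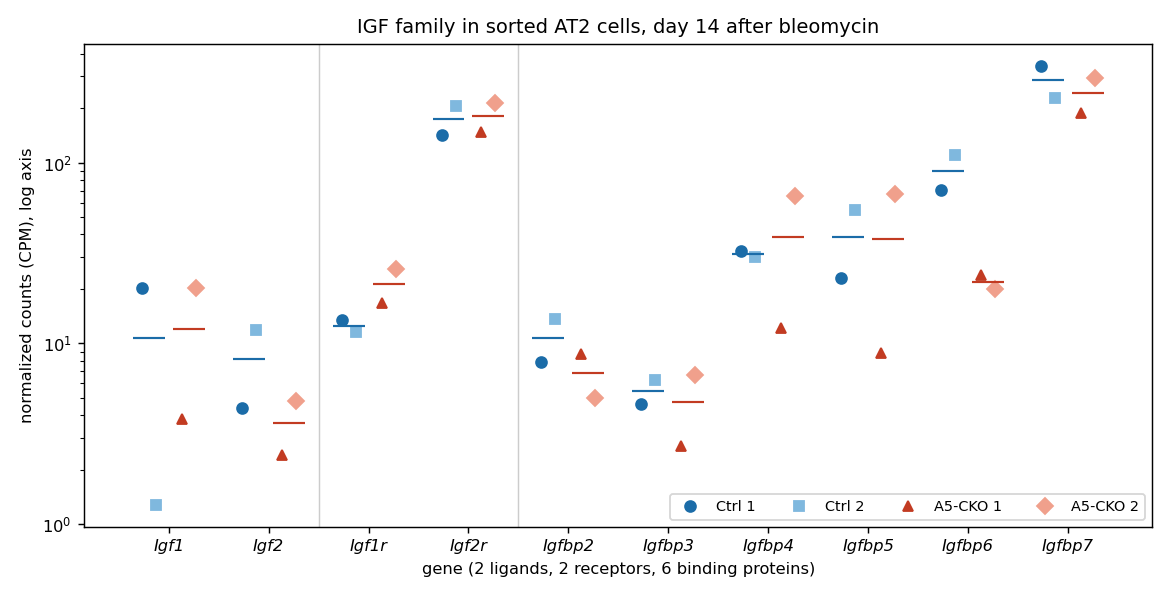
Normalized counts (CPM, log axis) of the 10 IGF family genes in each of the 4 libraries; points are libraries and bars are group means (n = 2). Only Igfbp6 (lower in A5-CKO) and Igf1r (higher in A5-CKO) have groups that do not overlap.

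Among the binding proteins, Igfbp6 was the one with groups that did not overlap. It was at 70.7 and 110 CPM in Ctrl and at 23.8 and 20.05 CPM in A5-CKO, from 1195 and 1889 counts and from 526 and 469 counts. Both A5-CKO libraries were below both Ctrl libraries, and the means were 90.3 ± 27.7 and 21.9 ± 2.66 CPM (SD, n = 2 each). The fitted level was 4.12-fold lower in A5-CKO (log2 fold change -2.04, SE 0.34). With each library left out in turn the log2 fold change stayed between -2.27 and -1.73, at -2.27 without the first Ctrl and -1.95 without the second A5-CKO library. A separation with A5-CKO lower was found in 23.5% of all genes. Igfbp6 was lowest in the second A5-CKO library, where the fibroblast marker sum was the highest of the 4. AT2, club and ciliated cell marker sums were lower in the A5-CKO libraries too: the AT2 sum was 54162 and 77462 CPM in Ctrl and 40075 and 32999 CPM in A5-CKO, and the sum of 4 club cell markers was 2868 and 2733 against 1962 and 1318 CPM. The sum of 4 ciliated cell markers was 155 and 143 CPM in Ctrl and 142 and 51.2 CPM in A5-CKO. The part of fibroblasts or of AT2, club or ciliated cells in the Igfbp6 values was not tested. In bulk libraries fewer cells of a type and less RNA per cell cannot be told apart.

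The genes with the profile closest to Igfbp6 were Pla2g1b (distance 0.27), Prcd (0.31), 1700001L19Rik (0.32), Mir707 (0.36) and Cbr2 (0.43). Pla2g1b, which encodes a secreted phospholipase, was at 116 and 166 CPM in Ctrl and at 46.4 and 32.2 CPM in A5-CKO. Cbr2, a carbonyl reductase abundant in lung epithelium, was at 4681 and 6611 CPM in Ctrl and at 2084 and 1239 CPM in A5-CKO. 1700001L19Rik and Mir707 had at most 20 counts in any library. No other member came closer to Igfbp6 than Igf2, at a distance of 1.40.

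Igfbp7 was the most abundant member, at 342 and 227 CPM in Ctrl and at 188 and 294 CPM in A5-CKO. The groups overlapped (log2 fold change -0.24, SE 0.38, adjusted p = 0.844), and the log2 fold change was 0.15 without the first Ctrl and -0.63 without the second A5-CKO library. It supplied 71.2% and 51.4% of the summed IGFBP counts in Ctrl and 76.9% and 64.2% in A5-CKO, while Igfbp6 supplied 14.7% and 24.9% in Ctrl, and its share in A5-CKO was 9.75% and 4.37%. The summed IGFBP level was 481 and 441 CPM in Ctrl and 244 and 458 CPM in A5-CKO, so that the first A5-CKO library was the low one and the second lay between the Ctrl libraries.

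Igfbp4 and Igfbp5 differed more within A5-CKO than between the groups. Igfbp4 was at 32.3 and 29.9 CPM in Ctrl and at 12.1 and 65.7 CPM in A5-CKO, and Igfbp5 was at 22.9 and 54.6 CPM in Ctrl and at 8.87 and 66.6 CPM in A5-CKO. For both genes the first A5-CKO library was the lowest and the second the highest of all 4. The gap between the A5-CKO libraries was 2.43 on the log2 scale for Igfbp4 and 2.90 for Igfbp5, and 3.63% and 2.25% of all genes differed as much. The log2 fold change was 0.32 for Igfbp4 (SE 0.69, adjusted p = 0.886), 0.46 without the first Ctrl library, 1.07 without the first and -1.39 without the second A5-CKO library. For Igfbp5 it was -0.04 (SE 0.85, adjusted p = 0.990), -0.45 without the first Ctrl library, 0.77 without the first and -2.16 without the second A5-CKO library. The fibroblast marker Col1a1 was at 21.3 CPM in the first and at 386 CPM in the second A5-CKO library, against 147 and 32.5 CPM in Ctrl. The sum of 6 smooth muscle cell and pericyte markers was 23.8 and 159 CPM in A5-CKO and 84.0 and 26.6 CPM in Ctrl. Both were lower in the second than in the first Ctrl library, whereas Igfbp5 was higher there. The fibroblast markers did not all share the order of Col1a1. Pdgfra was at 9.17 and 11.3 CPM in Ctrl and at 5.52 and 22.9 CPM in A5-CKO. Tcf21 was also higher in the second Ctrl library, and the other markers of that list were lower there. The sum of 8 endothelial cell markers was 124 and 245 CPM in A5-CKO and 176 and 247 CPM in Ctrl. This sum rose from the first to the second library in both groups, as Igfbp5 did, but its markers did not all do so. Pecam1, Cdh5, Tek and Vwf rose in both, with Vwf at 12.0 and 79.9 CPM in A5-CKO. Kdr fell in A5-CKO, Emcn and Egfl7 fell in Ctrl, and Cldn5 had no count. The part of these cells in Igfbp4 and Igfbp5 was not tested.

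Igfbp3, the main IGF carrier of serum, was at 4.61 and 6.28 CPM in Ctrl and at 2.72 and 6.71 CPM in A5-CKO. Its A5-CKO libraries enclosed those of Ctrl, as for Igfbp4 and Igfbp5 (log2 fold change -0.21, SE 0.62, adjusted p = 0.919), and the value was -0.34 without the first Ctrl and -1.03 without the second A5-CKO library. Igfbp2 was at 7.92 and 13.6 CPM in Ctrl and at 8.78 and 5.001 CPM in A5-CKO. Here the second A5-CKO library was the lowest, and the first lay between the Ctrl libraries (log2 fold change -0.64, SE 0.53, adjusted p = 0.676), and the value was -0.92 without the first Ctrl and -0.32 without the second A5-CKO library.

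**Figure D2:**
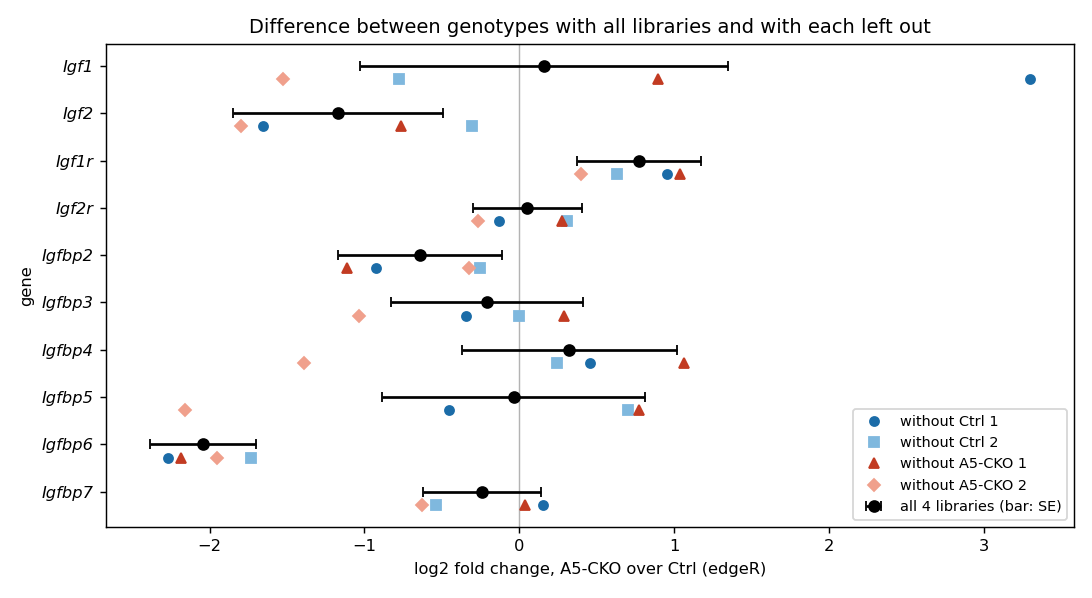
Log2 fold change of A5-CKO over Ctrl for each IGF family gene: black points with all 4 libraries (bars, SE), coloured points with 1 library left out. Igfbp6 lies between -2.27 and -1.73, Igf1 between -1.53 and 3.30 and Igfbp5 between -2.16 and 0.77. The Igfbp6 groups do not overlap, so leaving out 1 library can hardly change its direction.

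Across the family, 1 of 10 genes was higher and 1 lower without overlap between the groups, and 8 overlapped. Over all 16661 tested genes 43.8% did not overlap in one direction or the other. All 10 members passed the filter on low counts. The median log2 fold change was -0.12 over the 10 genes, with 4 above and 6 below 0, and -0.02 over all genes. Over the 9 members other than Igfbp6, which prompted the choice, it was -0.04, with 4 above and 5 below 0. No gene of the whole table had an edgeR adjusted p under 0.05 (0% of genes), while 1530 had an unadjusted p under 0.05 (9.18%). DESeq2 called 55 on the same genes (0.33%) and 59 with its default filtering (0.385%). Of the 9 members other than Igfbp6, none passed at an unadjusted p under 0.05 in edgeR, none was called by DESeq2, and their edgeR adjusted p-values ran from 0.549 to 0.990.

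Within the groups, the A5-CKO libraries differed by more than 2-fold in 5 of 10 members against 21.8% of all genes, and the Ctrl libraries in 3 of 10 against 21.9%. The median gap between the A5-CKO libraries was 0.91 on the log2 scale for the members and 0.44 for all genes. With 2 libraries a group, the smallest two-sided p that permuting the labels of 1 gene can give is 0.333.

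**Figure D3:**
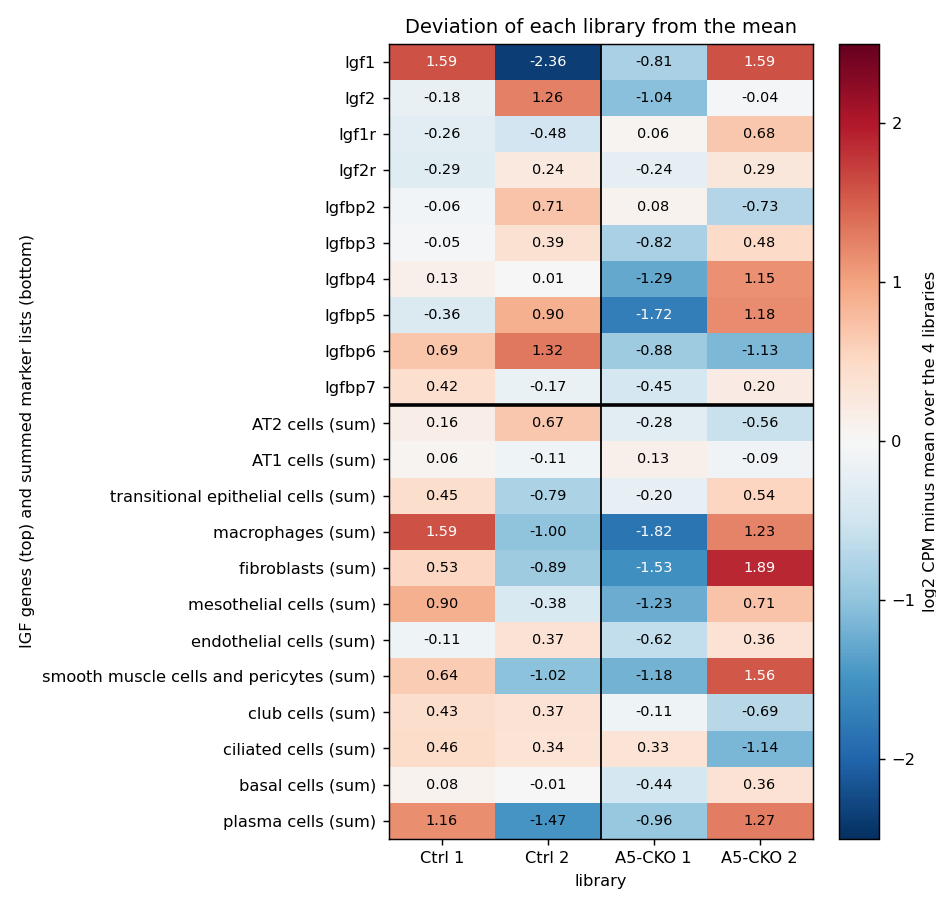
Deviation of each library (columns) from the mean of the 4, in log2 CPM, for the IGF family genes (top) and for the summed markers of each cell type (bottom). Igf1 is above its mean in Ctrl 1 and A5-CKO 2, as are the macrophage, fibroblast and several other marker sums. Igfbp6 is below its mean in both A5-CKO libraries.

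Compared per kilobase of exon, so that genes of different length can be set side by side, Igfbp7 was highest at 155 to 283 CPM per kb over the 4 libraries. Igfbp6 followed at 18.03 to 98.8 and Igf2r at 15.2 to 22.8 CPM per kb. Next came Igfbp4 (2.75 to 14.9), Igfbp5 (1.48 to 11.1), Igfbp2 (2.71 to 7.34) and Igfbp3 (0.87 to 2.14 CPM per kb). Igf1 (0.13 to 2.04), Igf2 (0.42 to 2.08) and Igf1r (0.69 to 1.54 CPM per kb) were the lowest. The ranges separated Igfbp7 from Igfbp6, Igf2r from Igfbp4 and Igfbp2 from Igfbp3, and those of all other neighbours in this order overlapped. Igfbp6 ranked second in both groups by its mean, at 81.2 CPM per kb in Ctrl and 19.7 in A5-CKO, where it was close to Igf2r at 19.3.

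In GRCm38.p6 the ligand genes lie at chr10:87858265-87937047 (Igf1, plus strand) and chr7:142650768-142666816 (Igf2, minus strand), and the receptor genes at chr7:67952257-68233668 (Igf1r, plus strand) and chr17:12682406-12769706 (Igf2r, minus strand). Igfbp2 (chr1:72824480-72852474, plus strand) and Igfbp5 (chr1:72858065-72874865, minus strand) are neighbours on the same chromosome with their ends facing each other. Igfbp3 and Igfbp4 share a chromosome at chr11:7206086-7215498 (minus strand) and chr11:99040005-99052655 (plus strand), and Igfbp7 lies at chr5:77349240-77408045 on the minus strand.

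The counts of some members could include reads of a gene on the other strand, since the sources used here do not state whether strand was used. Polr2b, a subunit of RNA polymerase II with 1522 to 2134 counts, overlaps Igfbp7, and Airn, the imprinted antisense RNA with 9 to 69 counts, overlaps Igf2r. Overlap was taken over whole gene spans, and whether the counted exons overlap was not examined. Igf2os (2 to 20 counts) and Igf1os (0 to 4 counts) overlap Igf2 and Igf1. Igfbp6, at chr15:102144186-102149512 on the plus strand, overlapped no other annotated gene.

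Beyond the family, 35 further genes of the IGF axis were examined, and 29 had enough counts for the test. None passed at an adjusted p under 0.05. At an unadjusted p under 0.05, 2 genes were lower (784 of all genes, 4.71%) and none was higher (746 genes, 4.48%). Igfals, the acid-labile subunit that holds IGF and IGFBP in the serum complex, was at 13.1 and 11.9 CPM in Ctrl and at 4.62 and 5.001 CPM in A5-CKO. Both A5-CKO libraries were below both Ctrl libraries (log2 fold change -1.38, SE 0.45, adjusted p = 0.528). Akt2, a kinase downstream of the insulin and IGF-1 receptors, was at 370 and 401 CPM in Ctrl and at 203 and 214 CPM in A5-CKO, again without overlap (log2 fold change -0.89, SE 0.31, adjusted p = 0.528). Without a single library the log2 fold change ranged from -1.49 to -1.25 for Igfals and from -0.96 to -0.86 for Akt2. The unadjusted p depended on the setting. Both stayed under 0.05 in edgeR with RLE or upper-quartile factors. Without scaling factors the edgeR unadjusted p was 0.053 for Igfals and 0.105 for Akt2, and with the replicate block it was 0.048 and 0.065.

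Of the 29 genes, 12 had a log2 fold change above 0 and 17 below, with a median of -0.11. The groups did not overlap for 3 genes that were higher in A5-CKO, among them Pik3cb and Pik3r1, and for 5 that were lower, Igfals, Htra1, Akt1, Akt2 and Inppl1. Over all tested genes 20.3% were higher and 23.5% lower without overlap. Apart from Igfals and Akt2, these genes are named after their values were seen. The 16 genes tested of the PI3K, AKT and FoxO branch ranged from -0.89 to 0.78 in log2 fold change, and the 7 adaptors from -0.60 to 0.29.

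Insr, the insulin receptor, was at 55.8 and 137 CPM in Ctrl and at 104 and 74.5 CPM in A5-CKO, both within the Ctrl range (log2 fold change -0.11, SE 0.46). The adaptor Irs1 was at 17.5 and 37.0 CPM in Ctrl and at 35.7 and 28.04 CPM in A5-CKO, likewise inside it. Irs2 was at 57.1 and 218 CPM in Ctrl and at 251 and 86.1 CPM in A5-CKO, and was low in the same 2 libraries in which Igf1 was high. Grb10, an adaptor that restrains insulin and IGF-1 signalling, was at 34.9 and 40.7 CPM in Ctrl and at 23.4 and 46.3 CPM in A5-CKO, where the libraries enclosed those of Ctrl. The groups overlapped for all 4 genes. Pappa, a protease that cleaves IGFBP-4, was at 0.47 CPM in the first Ctrl and 2.65 CPM in the second A5-CKO library. It had no count in the other 2, which allows up to 3 counts or 0.175 and 0.136 CPM, and it was too low for the test.

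**Figure D4:**
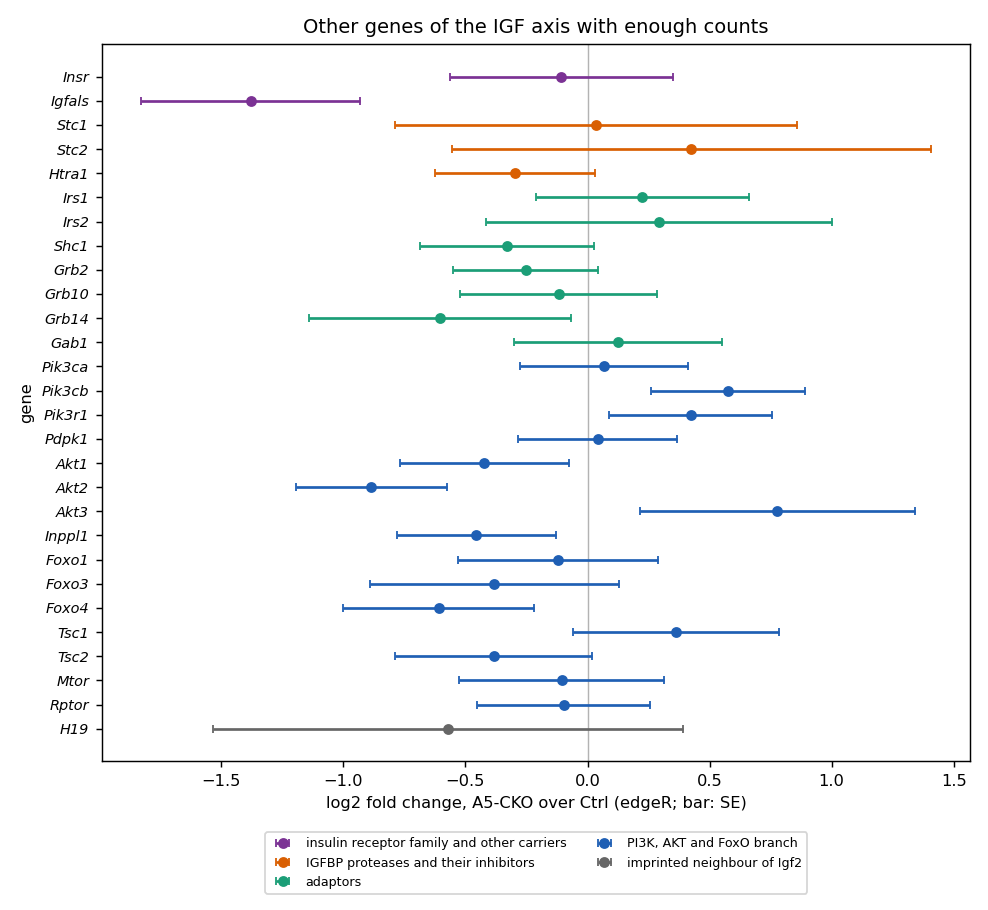
Log2 fold change of A5-CKO over Ctrl (points; bars, SE) for other IGF axis genes with enough counts (1 is not shown), coloured by their place in the pathway. Igfals at -1.38 and Akt2 at -0.89 lie furthest below 0, and no gene shown exceeds 0.78.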

How the data were processed

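RNA-seq read counts per gene were analysed for AT2 cells sorted on day 14 after bleomycin, 2 Ctrl and 2 A5-CKO libraries. The authors deposited raw whole-number counts. Trim Galore 0.6.10, HISAT2 2.2.1 and featureCounts 2.0.3 are named in the submitters' notes and the study's methods, with the mm10.p6 genome, an NCBI annotation and duplicate removal by sambamba. The methods describe the counting under MeRIP-seq, and it was taken here to hold for the RNA-seq counts; the strand setting is not given in the sources used here. The study's other sequencing data were not used here.

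Counts were tested with edgeR 4.0.16 in R 4.3.3 (TMM, filterByExpr, glmQLFit, glmQLFTest, Benjamini-Hochberg over 16661 genes), after the procedure was tested on simulated data. The SE of a log2 fold change is its size divided by the square root of F. Normalized counts are CPM on TMM-scaled library sizes (factors 0.86 to 1.13). A floor of 3 counts equals 0.128 to 0.177 CPM and allows for counting error alone. Within a group the libraries differed by far more than sampling (chi-square per degree of freedom 120 in Ctrl and 107 in A5-CKO), so each was 1 replicate. Whether each library came from 1 mouse is not given in the labels, and p-values measure the spread between these libraries.

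Other settings tried were scaling by RLE or upper-quartile factors or none, DESeq2 1.42.0, no filter, 10 counts in every library, a replicate block, a spline on transcript length and each library left out. The crossed replicate block was added after the data were seen. Exon lengths and transcripts were from GENCODE M21, promoters and coordinates from RefSeq GRCm38.p6; all 10 members had a promoter window, and no protein sequences were used. The named genes were the 10 members, Alkbh5, axis genes with an unadjusted p under 0.05, Insr, Irs1, Irs2, Grb10, Pappa, abundant markers, and the 5 genes nearest to Igfbp6 and Igf1. Further fibroblast and endothelial markers were named after their values were seen. The members and all gene lists were chosen with earlier results of these data known. Of the genes these rules name, 1 of the axis and 1 near Igf1 are not reported here.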

Additional observations from a re-analysis of the deposited data

How the results depend on the processing

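The 2 libraries a group limit every test here, and at this spread (biological coefficient of variation 41.6%) a small change is not detectable. A large one can be missed too: Alkbh5, 4.18-fold lower in A5-CKO, had an edgeR adjusted p of 0.528. Alternatives were read against the edgeR result with TMM factors. Over all genes, 0 had an adjusted p under 0.05, against 55 by DESeq2 on the same genes, 59 with its default filtering and 230 with a crossed replicate block. At an unadjusted p under 0.05 there were 1530, against 754 with the replicate block, 2582 with the crossed block and 746 to 1668 with single libraries left out. Same-numbered libraries were not paired by the labels, and their deviations correlated at -0.34, so that the block is only an alternative. Of the 9 members other than Igfbp6, 0 passed at an adjusted p under 0.05 under any alternative. At an unadjusted p 0 passed, against 1 without scaling (Igf1r) and 0 to 2 with libraries left out (Igf1 without the first Ctrl, Igfbp4 without either A5-CKO and Igfbp5 without the second A5-CKO library). Of the axis genes 2 passed at an unadjusted p, 1 with the replicate block and 1 to 4 with libraries left out. Omitting scaling moved the median of all genes from -0.02 to 0.30.

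Changes of sign were found for genes whose main log2 fold change lay between -0.24 (Igfbp7) and 0.32 (Igfbp4). Leaving out single libraries moved some of them far from 0. Igfbp5 (-0.04) was 0.0294 with RLE factors, 0.0918 with upper-quartile factors, 0.31 without scaling, 0.0294 with DESeq2 on the tested genes, 0.0162 under its default filter, and 0.0116 with 10 counts in every library. Without scaling Igfbp3 was 0.12, Igfbp7 0.0695, Insr 0.23 and Grb10 0.21. With the replicate block and with the crossed block Igfbp4 was -0.13, and Insr was 0.0122 and 0.0118. With upper-quartile factors Insr was 0.0017. The length correction, made on 15237 genes (91.5%), gave -0.25 for Igf1, -0.25 for Igf2r and -0.0515 for Irs1. With single libraries left out, Igf1 ranged from -1.53 to 3.30, Igf2r from -0.27 to 0.31, Igfbp3 from -1.03 to 0.29, Igfbp4 from -1.39 to 1.07, Igfbp5 from -2.16 to 0.77, Igfbp7 from -0.63 to 0.15, Insr from -0.56 to 0.63, Irs1 from -0.16 to 0.82, Irs2 from -0.69 to 1.51 and Grb10 from -0.72 to 0.28. Igf2, Igf1r, Igfbp2, Igfbp6, Igfals and Akt2 kept their direction under all 14 alternatives. The groups of Igf1r, Igfbp6, Igfals and Akt2 did not overlap, so leaving out 1 library could hardly change their direction. The causes were not tested.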
